A study of Homo sapiens with 4 samples.

Results

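Transforming growth factor beta (TGF-beta) is a secreted cytokine that binds paired type II and type I receptor kinases, which phosphorylate the receptor-activated SMADs. These enter the nucleus with SMAD4 and act on transcription, while inhibitory SMADs and the corepressors SKI and SKIL limit the response. In epithelial cancers the pathway is known for arresting growth at early stages and for promoting migration and a mesenchymal state later. FOXC1 is a forkhead transcription factor, and where it bound at 9 genes of this pathway was examined in J82, an established human bladder cancer cell line.

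The 9 genes comprised the ligands TGFB1 and TGFB2, the receptors TGFBR1 and TGFBR2, the receptor-activated SMAD2 and SMAD3, the inhibitory SMAD6 and SMAD7, and the corepressor SKIL, and they were chosen by name, with earlier results of these data known. A FOXC1 peak was assigned to a gene when its summit lay in the gene body or within 50 kb of it. In all, 39 of the 22405 peaks of replicate 1 and 88 of the 41789 peaks of replicate 2 met this rule. FOXC1 ChIP-seq pulls down DNA bound by the protein with an antibody (anti-FOXC1 D8A6), and a peak marks a place where fragments pile up. The 4 libraries were 2 FOXC1 ChIP replicates and 2 inputs made without antibody, all from J82 cells grown in DMEM with 10% FBS, and no treatment is given in the labels. Each of the 2 peak lists was made from 1 replicate set against input, so values are given per replicate. With 2 lists of a single group there was no contrast between conditions, and no test was run. Both lists came from 1 cell line.

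Fold enrichment is the read pileup at the summit divided by the local background, with 1 added to each. The −log10 q is the caller's significance after adjustment over the genome. The reads over the summit were solved from these values and give the depth behind each peak (median over the whole list, 18 reads for replicate 1 and 23 for replicate 2). Peaks of the replicates that overlapped by at least 1 bp were merged into shared regions. Shared regions were ranked from 1, the strongest, to 13238 by the poorer of their positions by −log10 p in the replicates. Coordinates are on hg19, and percentage intervals are 95% Wilson intervals, which cover counting error only.

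Of the 13238 shared regions, 30 lay at the 9 genes. A shared region was present at 8 of the 9 genes, compared with 46.6% of all 20162 protein-coding genes measured in the same way. Regions with a −log10 q of at least 5 in both replicates were present at 6 of the 9, compared with 29.3%. The number of shared regions was 9 at TGFB2, 5 at TGFBR2, 4 each at TGFB1, SMAD3 and SMAD7, 2 at SKIL, 1 each at SMAD2 and SMAD6, and 0 at TGFBR1. The strongest were a region 17.7 kb beyond the 3′ end of SMAD7, at rank 19, and a region 14.2 kb upstream of SMAD3, at rank 210.

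**Figure D1:**
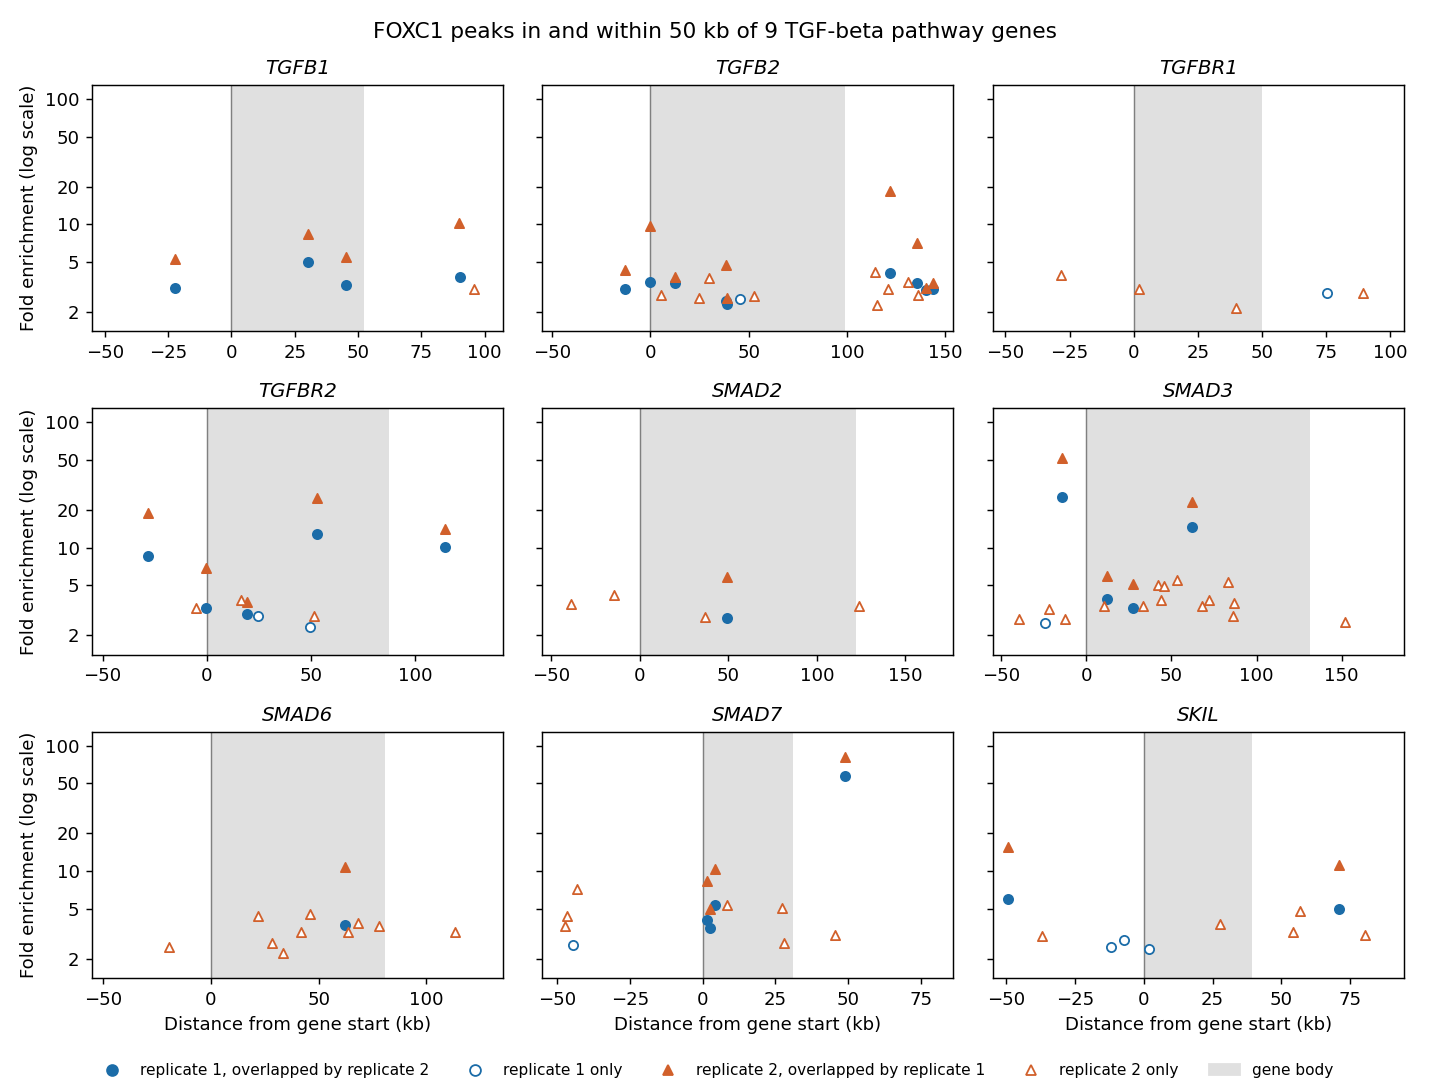
Position and fold enrichment (log scale) of every FOXC1 peak in and within 50 kb of the 9 genes, by distance in kb from the gene start in the direction of transcription. Filled symbols mark peaks overlapped by the other replicate, open symbols mark peaks of a single replicate, and shading marks the gene body. The highest points lie beyond the 3′ end of SMAD7 (57.6 in replicate 1 and 81.6 in replicate 2), and TGFBR1 has open symbols only.

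To show the DNA under the summits, 101 bases of the plus strand of GRCh37, the assembly of hg19, are given around the summits of shared regions. Capitals mark matches on either strand to the forkhead consensus (ATAAACA or ATAAATA or GTAAACA or GTAAATA), to the AP-1 sequence (TGACTCA or TGAGTCA), or to an extended forkhead element, a forkhead-like core with CCAA before it. The extended element may overlap the consensus, as it does at SMAD3. The first set holds the strongest region of each gene, the summit of which is the centre base. That of TGFB1 lay in an untranslated region and is not shown.

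SMAD7, beyond the 3′ end, chr18:46428455-46428555: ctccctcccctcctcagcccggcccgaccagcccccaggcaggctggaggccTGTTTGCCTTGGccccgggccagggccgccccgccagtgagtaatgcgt
SMAD3, upstream, chr15:67341830-67341930: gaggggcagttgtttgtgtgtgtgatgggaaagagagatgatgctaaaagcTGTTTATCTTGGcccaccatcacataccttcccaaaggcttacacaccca
TGFBR2, intron, chr3:30700995-30701095: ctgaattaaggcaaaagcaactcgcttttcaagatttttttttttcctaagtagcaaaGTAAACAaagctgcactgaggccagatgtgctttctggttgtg
SKIL, upstream, chr3:170025857-170025957: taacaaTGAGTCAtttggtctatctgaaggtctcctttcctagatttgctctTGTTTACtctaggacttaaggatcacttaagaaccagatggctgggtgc
TGFB2, beyond the 3′ end, chr1:218640517-218640617: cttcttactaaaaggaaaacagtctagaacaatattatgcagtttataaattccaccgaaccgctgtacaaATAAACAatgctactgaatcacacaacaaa
SMAD6, intron, chr15:67056532-67056632: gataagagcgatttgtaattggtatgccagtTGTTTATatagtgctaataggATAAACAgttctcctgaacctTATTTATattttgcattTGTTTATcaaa
SMAD2, intron, near the start of an intronic transcript, chr18:45408143-45408243: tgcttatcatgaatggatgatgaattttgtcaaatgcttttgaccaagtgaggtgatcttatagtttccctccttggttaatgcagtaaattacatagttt

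A match to the consensus or to the extended element was present in 6 of these 7 windows, and SMAD2 had neither. Over all shared regions, 48.7% held the consensus and 7.28% the extended element, and the share with either was not computed. Median fold enrichments in replicate 1 over all shared regions were 3.91 with the consensus and 3.66 without it. For the extended element they were 5.18 and 3.70. The share of matches among the strongest regions of all genes was not computed. At SMAD7 the match was to the extended element alone, 2 to 13 bases from the summit in a window of 74.3% G and C. At SMAD3 the extended element lay 1 to 12 bases from the summit and held the consensus within it. The SMAD6 window held 4 matches to the consensus, 1 of which lay 2 to 8 bases from the summit. In the SKIL window the consensus lay 2 to 8 bases to the right of the summit and the AP-1 sequence 44 to 38 bases to the left of it, so both were present within 101 bases.

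Shared regions within 2 kb of a start site of the gene itself were present at 4 of the 9 genes. The second set holds, for each of the 4, the region nearest to such a start that lay outside untranslated regions. The share of all protein-coding genes with a shared region at their own start was not computed.

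TGFB2, promoter, chr1:218518453-218518553: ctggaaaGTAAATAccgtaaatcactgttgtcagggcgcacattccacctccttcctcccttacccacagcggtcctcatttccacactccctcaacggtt
TGFBR2, promoter, chr3:30647768-30647868: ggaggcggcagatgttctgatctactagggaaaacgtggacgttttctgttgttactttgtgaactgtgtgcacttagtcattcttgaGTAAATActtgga
SMAD7, promoter, chr18:46474880-46474980: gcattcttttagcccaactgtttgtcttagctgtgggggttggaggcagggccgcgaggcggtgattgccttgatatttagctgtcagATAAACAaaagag
SMAD3, near a start inside the gene, chr15:67368515-67368615: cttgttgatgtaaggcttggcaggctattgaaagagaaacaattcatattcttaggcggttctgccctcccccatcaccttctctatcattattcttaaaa

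The consensus lay 43 to 37 bases to the left of the summit in TGFB2, and 38 to 44 bases to the right of it in both TGFBR2 and SMAD7, near the window's edge in each. SMAD3 had no match. Over all 7 regions within 2 kb of a start of the gene itself, 4 held the consensus, and the other 3 were 2 regions of SMAD3 and 1 of SMAD7.

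The ligand genes differed in number and strength of shared regions. TGFB1 encodes the most widely expressed TGF-beta ligand (ENSG00000105329, chr19:41807492-41859827, minus strand). Its window held 4 peaks of replicate 1 and 5 of replicate 2, which formed 4 shared regions. The strongest, chr19:41829213-41829891, had a fold enrichment of 5.03 (25 reads) in replicate 1 and 8.39 (43 reads) in replicate 2, averaging 6.71 ± 2.37 (SD, n = 2), and its −log10 q was 8.81 and 22.2. Its summit lay in an exon where the annotation overlaps TGFB1 and CCDC97, and it held both the consensus and the AP-1 sequence.

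The other 3 TGFB1 regions lay at promoters of neighbouring genes and not at a TGFB1 start. The region chr19:41769575-41770195 lay 490 bp from a start of HNRNPUL1, an RNA-binding protein gene, with fold enrichments of 3.82 and 10.3 (mean 7.07 ± 4.6, SD, n = 2). The region chr19:41814424-41814851 lay 1382 bp from a start of CCDC97, with fold enrichments of 3.29 and 5.54 (mean 4.41 ± 1.59, SD, n = 2). The region chr19:41882001-41882479 lay 165 bp from a start of TMEM91, with fold enrichments of 3.10 and 5.35 (mean 4.22 ± 1.59, SD, n = 2). This window is gene-rich, with 8 starts of protein-coding genes in it. No shared summit of the window lay within 2 kb of a start site of TGFB1, and the nearest was 18340 bp from one.

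TGFB2, the ligand with major roles in heart, eye and craniofacial development, had the most shared regions (ENSG00000092969, chr1:218518678-218617961, plus strand). Its window held 10 peaks of replicate 1 and 18 of replicate 2, and 9 shared regions. This came to 45.2 shared regions per Mb, and 99.8% of protein-coding genes had a lower density. Most of these regions were weak, since 6 of the 9 were at ranks 8310 to 12757, with fold enrichments of 2.33 to 3.40 in replicate 1 and 2.59 to 4.73 in replicate 2.

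The remaining 3 TGFB2 regions stood higher, mainly in replicate 2. The strongest, chr1:218640110-218641011, lay 22.6 kb beyond the 3′ end of TGFB2 within the noncoding gene LINC02869. Its fold enrichment was 4.11 (30 reads) in replicate 1 and 18.5 (101 reads) in replicate 2, averaging 11.3 ± 10.1 (SD, n = 2), a ratio of 4.49 between the replicates and the highest of the 30 regions. Another, chr1:218653655-218654513, also in LINC02869, reached 3.39-fold and 7.14-fold enrichment (mean 5.27 ± 2.65, SD, n = 2). The local background of this region was 2.59 and 2.13 times the genome background of its list, the highest of the 30 regions in replicate 1. Its part in these values was not tested. The TGFB2 promoter region, chr1:218518200-218518706, had its summit 175 bp upstream of the gene start and inside the antisense gene TGFB2-AS1. It had fold enrichments of 3.48 with 22 reads and 9.74 with 62 reads (mean 6.61 ± 4.42, SD, n = 2) and a −log10 q of 4.31 and 36. At each of these 3 regions the replicate 2 value was at least 2.10 times that of replicate 1. Of the 9 TGFB2 regions, 4 lay beyond the 3′ end, 3 in the gene body and 2 upstream, and 7 held the consensus.

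The receptor genes differed, with 0 shared regions at TGFBR1 and 5 at TGFBR2. TGFBR1 encodes the type I receptor kinase that phosphorylates SMAD2 and SMAD3 (ENSG00000106799, chr9:101866320-101916474, plus strand). No shared region was listed in its window. Replicate 1 had 1 peak there, with a fold enrichment of 2.83 and a −log10 q of 1.88, 75305 bp downstream of the gene start. Replicate 2 had 4 peaks with fold enrichments of 2.16 to 3.97. The strongest of these, chr9:101837781-101838383, lay 28298 bp upstream with 34 reads and a −log10 q of 7.75, and another lay 1977 bp downstream of the gene start with 18 reads and a −log10 q of 2.54. No peaks of the replicates overlapped in this window at this depth.

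TGFBR2 encodes the type II receptor, which binds the ligand and activates the type I receptor (ENSG00000163513, chr3:30648093-30735634, plus strand). Its 7 peaks of replicate 1 and 8 of replicate 2 formed 5 shared regions, with median fold enrichments of 8.67 and 14.2. The strongest, chr3:30700646-30701424, lay in an intron, 53.0 kb downstream of the gene start. It had a fold enrichment of 12.9 (78 reads) in replicate 1 and 24.8 (142 reads) in replicate 2, averaging 18.8 ± 8.45 (SD, n = 2), and ranked 724. The consensus lay 8 to 14 bases from its summit.

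Strong regions also flanked TGFBR2 on both sides. The upstream region chr3:30619635-30620886, 28.0 kb before the gene start, reached 8.67-fold and 19.0-fold enrichment (mean 13.8 ± 7.29, SD, n = 2) and ranked 1375. The consensus was not found within 50 bp of its summit. The region chr3:30762453-30763082, 27.1 kb beyond the 3′ end, reached 10.1-fold and 14.2-fold enrichment (mean 12.2 ± 2.92, SD, n = 2), ranked 1443, and held both the consensus and the AP-1 sequence, the latter 2 to 8 bases from the summit. The promoter region chr3:30647578-30648148, 275 bp upstream of the gene start, was weaker, with fold enrichments of 3.29 with 23 reads and 6.93 with 38 reads (mean 5.11 ± 2.57, SD, n = 2). The fifth region, chr3:30667287-30667805, lay in an intron of TGFBR2, 732 bp from the start of the pseudogene KLHL25P1, with fold enrichments of 2.97 and 3.67 (mean 3.32 ± 0.496, SD, n = 2). In each replicate the 3 distal regions exceeded the promoter region.

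The receptor-activated SMADs also differed from each other. SMAD2 (ENSG00000175387, chr18:45335328-45457517, minus strand) had 1 peak of replicate 1 and 5 of replicate 2, and a single shared region. This region, chr18:45407611-45408536, lay in an intron of SMAD2, 622 bp from the start of an intronic transcript, RP11-380M21.4. It had fold enrichments of 2.74 with 19 reads and 5.83 with 44 reads (mean 4.28 ± 2.18, SD, n = 2), and a −log10 q of 1.97 and 16.2. Its summits lay 135 bp apart in the replicates, the widest gap of the 30 regions.

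SMAD3, which carries the TGF-beta signal to DNA with its own DNA-binding domain, held some of the strongest regions (ENSG00000166949, chr15:67356101-67487511, plus strand). Replicate 1 listed 5 peaks and replicate 2 listed 19, and 4 shared regions resulted. The strongest, chr15:67340973-67342405, lay 14.2 kb upstream of the gene start, in an intron of a noncoding gene. Its fold enrichment was 25.6 (131 reads) in replicate 1 and 52.3 (274 reads) in replicate 2, averaging 38.9 ± 18.9 (SD, n = 2), its −log10 q was 139 and 342, and its summits lay 2 bp apart. The local background was at the genome level in both lists.

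Another strong SMAD3 region, chr15:67417695-67418598, lay 94 bp from an internal start site of SMAD3 and in an annotated untranslated region, 62.0 kb downstream of the gene start. It had fold enrichments of 14.5 with 74 reads and 23.2 with 127 reads (mean 18.8 ± 6.11, SD, n = 2) and ranked 873. The region chr15:67368313-67369024, 1759 bp from another internal start, reached 3.87-fold and 5.92-fold enrichment (mean 4.89 ± 1.44, SD, n = 2). The fourth region, in an intron, had fold enrichments of 3.29 and 5.15. Of the 4 SMAD3 regions, only the upstream region held the consensus within 50 bp of its summit. The 15 replicate 2 peaks without a replicate 1 partner lay mostly in the gene body, as the map of peaks by position shows.

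Inhibitory SMADs compete with the receptor-activated SMADs and recruit ubiquitin ligases to the receptors. SMAD6, which acts mainly on bone morphogenetic protein signalling, had 1 peak of replicate 1 and 11 of replicate 2 (ENSG00000137834, chr15:66994574-67075187, plus strand). The single shared region, chr15:67056244-67056853, lay in an intron, 62.0 kb downstream of the gene start. It had fold enrichments of 3.73 with 21 reads and 10.9 with 56 reads (mean 7.29 ± 5.05, SD, n = 2), a ratio of 2.92. Only in replicate 2 did it pass a −log10 q of 5, with 35.0 against 4.65 in replicate 1.

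SMAD7, which blocks the TGF-beta receptors and is itself induced by the pathway, carried the strongest of the 30 regions (ENSG00000101665, chr18:46446223-46477335, minus strand). Its 5 peaks of replicate 1 and 11 of replicate 2 formed 4 shared regions, or 30.5 per Mb. The strongest, chr18:46427917-46429213, lay between genes, 17.7 kb beyond the 3′ end and 48.8 kb from the gene start. The fold enrichment was 57.6 (339 reads) in replicate 1 and 81.6 (428 reads) in replicate 2, averaging 69.6 ± 17 (SD, n = 2), and the −log10 q was 476 and 608. The summits of the replicates fell on the same base. Within 50 bp of the summit only the extended element was found, and the nearest annotated start of any transcript was a SMAD7 start 28047 bp away.

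The other 3 SMAD7 regions lay near the 5′ end of the gene, at 1529, 2405 and 4248 bp from the gene start. The region chr18:46475470-46476055, 103 bp from a SMAD7 start site, had fold enrichments of 4.07 with 20 reads and 8.39 with 43 reads (mean 6.23 ± 3.06, SD, n = 2). The region chr18:46474658-46475164, 55 bp from another start, reached 3.49-fold and 4.96-fold enrichment (mean 4.23 ± 1.05, SD, n = 2). The region chr18:46472760-46473446, 1788 bp from a start, had fold enrichments of 5.33 with 28 reads and 10.5 with 54 reads (mean 7.91 ± 3.64, SD, n = 2). All 3 were far below the distal region in both replicates.

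SKIL encodes SnoN, a corepressor of SMAD-driven transcription (ENSG00000136603, chr3:170075130-170114623, plus strand). Its 5 peaks of replicate 1 and 7 of replicate 2 gave 2 shared regions, neither of them in the gene body. The upstream region, chr3:170025498-170026511, lay 49.2 kb before the gene start and 14772 bp from a start of PRKCI, a protein kinase C gene. It had fold enrichments of 5.94 with 53 reads and 15.5 with 119 reads (mean 10.7 ± 6.77, SD, n = 2) and ranked 1826. The downstream region, chr3:170145829-170146468, lay in an intron of CLDN11, a tight junction gene, with fold enrichments of 4.99 and 11.1 (mean 8.06 ± 4.33, SD, n = 2), and ranked 2811. The local background was 1.94 and 1.60 times the genome background at the upstream region, and 1.68 and 1.60 times at the downstream region, above the medians of 1.29 and 1.33 over all shared regions. Its part in these values was not tested.

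The fold enrichment was higher in replicate 2 at all 30 regions, as it was at 91.9% of all shared regions. At the 30 regions the median was 3.61 in replicate 1 and 7.77 in replicate 2, compared with 3.79 and 6.71 over all shared regions. Dividing the replicate 2 value by that of replicate 1 gave a median of 1.83, and the ratios ranged from 1.03 to 4.49, compared with a median of 1.69 over all shared regions. The log2 ratio had an SD of 0.48 over the 30 regions and 0.52 over all.

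**Figure D2:**
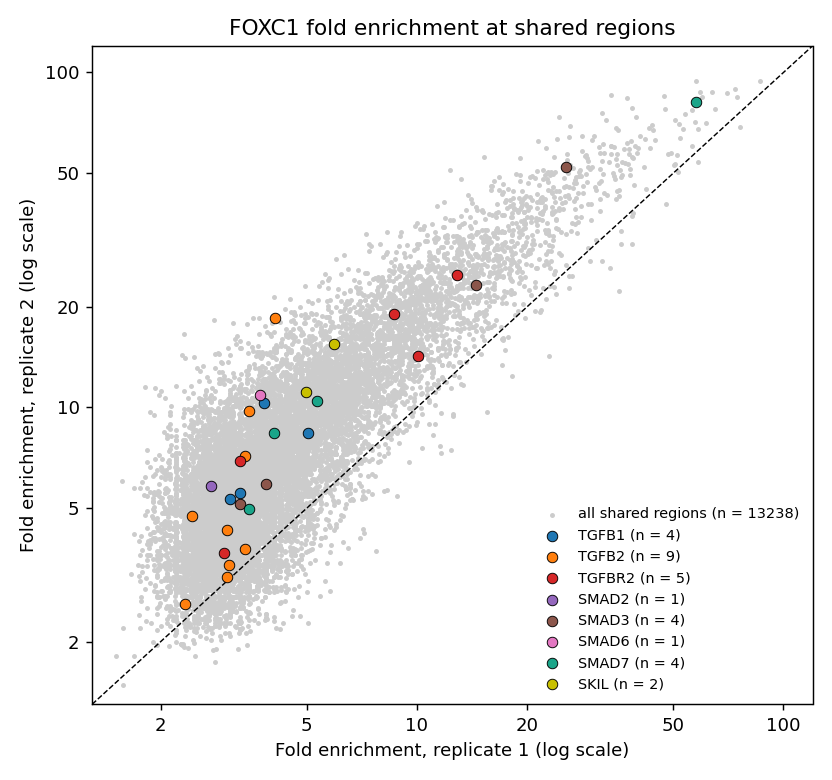
Fold enrichment in replicate 1 against replicate 2 (log scales) at the 13238 shared regions, with the 30 regions of the 9 genes coloured by gene. The dashed line marks equal values, and all 30 regions lie above it, with SMAD7 at the upper right (57.6 and 81.6).

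The 30 regions ran from rank 19 to rank 12757. Among the top 2000 shared regions were 7 of the 30 (23.3%, interval 11.8 to 40.9%), compared with 15.1% of all. They belonged to TGFBR2 with 3, SMAD3 with 2, and SMAD7 and SKIL with 1 each. Of the 7, 6 lay outside promoters, as did most of all shared regions. The share outside promoters was not computed for all of the top 2000. A −log10 q of at least 5 in both replicates was reached by 13 of the 30 (43.3%, interval 27.4 to 60.8%), compared with 50.8% of all. The fold enrichment was below the medians of all shared regions in both replicates at 12 of the 30, or 40%, compared with 39.5% of all.

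Next, the position of the 30 regions relative to genes was described. Summits lay in the member's own gene body in 15, upstream in 7 and downstream in 8. A start site of any transcript lay within 2 kb in 12 of the 30 (40%, interval 24.6 to 57.7%), compared with 20% of all shared regions. Windows drawn around genes contain start sites by construction, so this share and that of all regions are not like measures. A start of the member itself lay within 2 kb in 7 regions of 4 genes, SMAD7 with 3, SMAD3 with 2, and TGFB2 and TGFBR2 with 1 each. In the other 5 the start belonged to another gene. The median fold enrichment in replicates 1 and 2 was 3.48 and 6.42 at the 12 promoter regions, 3.40 and 6.15 at the 12 intronic regions and 9.38 and 17.2 at the 4 regions between genes. Over all shared regions the medians were 3.70 and 6.68 at promoters, 3.84 and 6.81 in introns and 3.78 and 6.66 between genes, so the higher values between genes rest on those 4 regions, 2 of TGFBR2 and 1 each of SMAD7 and SKIL.

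Of the 30 regions, 17 held the forkhead consensus no more than 50 bp from the summit (56.7%, interval 39.2 to 72.6%), compared with 48.7% of all shared regions. In control windows of the same size 500 bp downstream it was found in 4 of the 30 (13.3%, interval 5.31 to 29.7%), compared with 10.8% of all. There were 16 regions with the consensus only at the summit and 3 with it only in the control window. A control window could lie within a wide region. At the strongest SMAD7 region and at the TGFBR2 region 28.0 kb upstream it did so, and it held the consensus. By gene, 7 of the 9 had a region with the consensus, all but SMAD2, with 1 shared region, and TGFBR1, with 0. A gene with more regions has more chances of a match, and this share was not computed over all protein-coding genes. The consensus was found in 4 of the 12 promoter regions and in 9 of the 12 intronic regions. Over all shared regions of these kinds it was found in 49.4% and 48.4%.

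The AP-1 sequence, bound by dimers of JUN and FOS proteins, was found in 5 of the 30 (16.7%, interval 7.34 to 33.6%), compared with 16.6% of all, and in 0 control windows (interval up to 11.4%). Of these 5 regions, 4 also held the consensus, compared with 972 of the 2200 AP-1 regions over all. Both sequences were thus present in 13.3% of the 30 (interval 5.31 to 29.7%), compared with 7.34% of all. The extended element was found in 3 of the 30 (10.0%, interval 3.46 to 25.6%), compared with 7.28% of all. These 3 were the strongest regions of SMAD7 and SMAD3 and a weak region in a TGFB2 intron, with fold enrichments of 2.43 and 4.73.

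**Figure D3:**
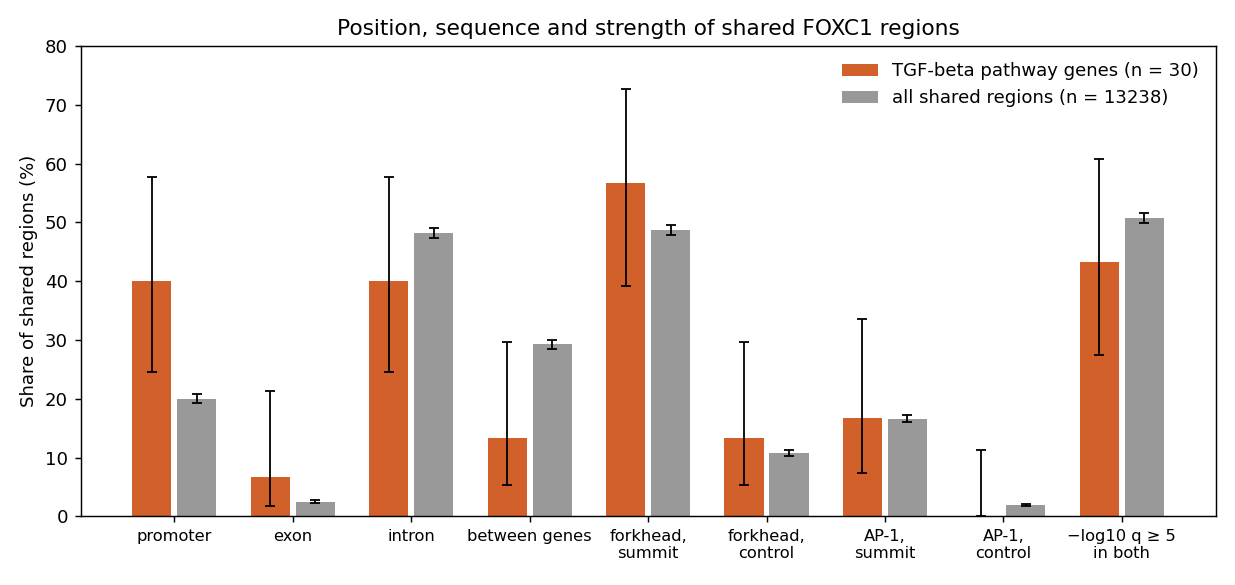
Share (%) of shared regions by annotation, sequence match and strength, for the 30 regions of the 9 genes and for all 13238 shared regions. Error bars are 95% Wilson intervals, which cover counting error only, and control marks windows 500 bp downstream. No pair was tested. The promoter shares (40% against 20%) are not like measures, since windows drawn around genes contain start sites by construction.

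Overlap between the replicates was then counted. Of the 39 replicate 1 peaks, 30 were overlapped by a replicate 2 peak (76.9%, interval 61.7 to 87.4%), compared with 59.6% of the whole list. Of the 88 replicate 2 peaks, 30 were overlapped by a replicate 1 peak (34.1%, interval 25 to 44.5%), compared with 31.7% of the whole list. Within the 30 regions the summits lay a median of 20.5 bp apart, compared with 28 bp over all.

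Peaks of a single replicate were weaker. The 9 peaks found only in replicate 1 had a median fold enrichment of 2.54, and none of them reached a −log10 q of 5. The 58 peaks found only in replicate 2 had a median fold enrichment of 3.37. Of these, 15 reached a −log10 q of 5, a share not computed for the whole list. The strongest, chr18:46520326-46520758, lay 43189 bp upstream of SMAD7 with a fold enrichment of 7.21, 37 reads and a −log10 q of 17.2, and was at rank 7569 of its list. Replicate 2 peaks without a partner were 15 of 19 at SMAD3, 10 of 11 at SMAD6 and 9 of 18 at TGFB2. They were 7 of 11 at SMAD7, 5 of 7 at SKIL, 4 of 5 at SMAD2 and 4 of 4 at TGFBR1. At TGFBR2 they were 3 of 8 and at TGFB1 1 of 5. Most peaks of the whole replicate 2 list also had no partner, since 31.7% were overlapped.

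The number of regions depends on the length of the window, and the density allows for this. Over the 1.59 Mb of the 9 windows there were 18.8 shared regions per Mb. The median over the 9 genes was 17.3 per Mb, compared with 4.84 per Mb over the 6699 protein-coding genes within their range of lengths, where 47.1% had no shared region. The share of all protein-coding genes with a lower density was 99.8% for TGFB2, 99.0% for SMAD7, 98.0% for TGFBR2, 97.9% for TGFB1, 92.5% for SMAD3, 89.0% for SKIL, 60.3% for SMAD6 and 57.6% for SMAD2.

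To place these genes within the wider family, 46 other genes of the TGF-beta and bone morphogenetic protein pathways were measured in the same way. Of these, 34 (73.9%) had a shared region, compared with 46.6% of all protein-coding genes. A region with a −log10 q of at least 5 in both replicates was present at 21 (45.7%), compared with 29.3%. The median was 8.88 shared regions per Mb, compared with 0 over all protein-coding genes, of which 53.4% had no shared region. The median gene length was 37.8 kb for the 46 genes and 27.2 kb for all. The 46 genes were not compared with genes of like length. The most shared regions were found at ACVR1, a type I receptor of the bone morphogenetic proteins, and at TGFBR3, the coreceptor betaglycan, with 6 each. NEDD4L, a ubiquitin ligase, and TGFBI, an extracellular matrix protein induced by TGF-beta, had 5 each.

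The classes of this list all held genes with and without regions. A shared region was present at 4 of 7 ligands, 7 of 10 receptors, 3 of 4 SMADs, 7 of 9 ligand carriers or traps, 5 of 7 corepressors or ubiquitin ligases and 8 of 9 target genes, against 46.6% of all protein-coding genes. With 4 to 10 genes a class, no order among the classes was read from these counts. No shared region was listed at 12 genes. These were the ligands BMP2, BMP7 and INHBA, the receptors ACVR2A, BMPR1A and BMPR1B, the common partner SMAD4, the ligand traps FSTL3 and NOG, the ubiquitin ligase SMURF1, the corepressor TGIF2 and the target gene ID2.

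**Figure D4:**
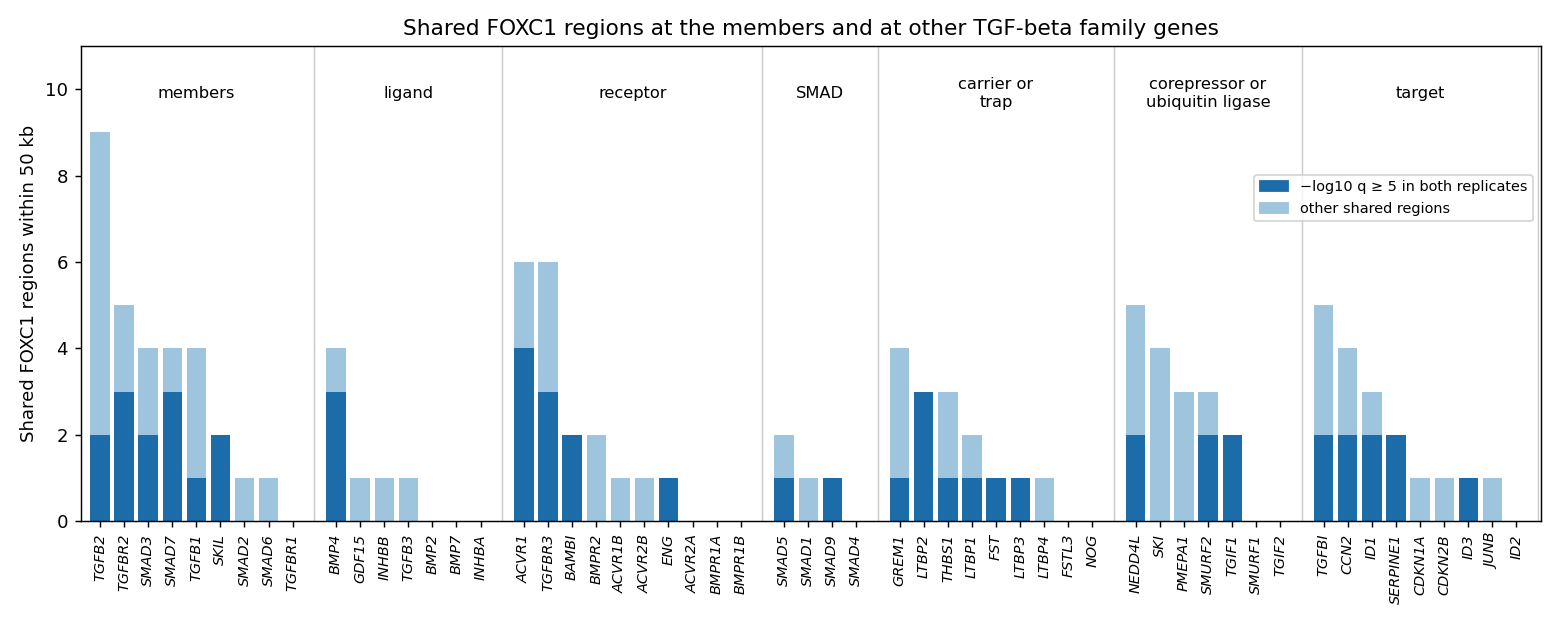
Number of shared FOXC1 regions in and within 50 kb of each of the 9 genes (members) and of 46 other pathway genes, grouped by role. Dark bars count regions with a −log10 q of at least 5 in both replicates and light bars the others. TGFB2 has the most regions (9), of which 2 are dark, and ACVR1 and TGFBR3 follow with 6.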

How the data were processed

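The authors made 2 biological replicates of FOXC1 ChIP-seq from J82 cells and sequenced them as single-end reads of 75 bp. According to the study's methods and the submitters' processing notes, bwa mapped the reads to hg19 and MACS2 2.2.7.1 called peaks relative to input. The filter that made the lists is not stated, and the study's set of reproducible peaks was not used here. The deposited score was 10 times the −log10 p, truncated, and was not used. The deposited fold enrichment is a ratio of pileup to local background, and the −log10 p and −log10 q are those the authors' caller gave. Files of the inputs, and RNA-seq or H3K27ac data, were not analysed here.

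Groups and replicate numbers came from the sample titles. Peaks on chromosomes 1 to 22, X and Y were kept. Gene models came from GENCODE release 44, lifted to GRCh37. A shared region was represented by the peak of highest −log10 p in each replicate, with its summit midway. Whole reads over each summit were solved from the fold enrichment and −log10 p with the Poisson model of MACS2 (residual under 0.001), which succeeded for 100% of peaks in both lists, and the steps were tested on simulated data. Shares were compared with all shared regions as a description. For each gene the strongest shared region, every promoter region and every region in the top 2000 were named, with the 4 other pathway genes of most regions and all of none. The genes and lists were chosen with earlier results of these data known. Python 3.11.15, pandas 2.3.3, scipy 1.17.1 and pysam 0.24.0 were used.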

Additional observations from a re-analysis of the deposited data

How the results depend on the processing

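No paired analysis was possible because the inputs, which share replicate numbers with the ChIP libraries, entered only through the authors' peak calls. Of 49 recomputed values, 30 stayed the same and 19 moved. Same means within 1.5 times the count, density or ratio given in the report, or within the interval of the share. In the gene bodies alone there were 19 and 47 peaks and 15 shared regions. At a −log10 q of at least 5 there were 13 and 41 peaks, 13 shared regions and 8.15 regions per Mb, and 100% of the replicate 1 peaks were overlapped. At a fold enrichment of at least 5 there were 9 and 28 peaks, 9 shared regions and 5.65 per Mb, and again 100%. The overlap of the whole lists and the density over all protein-coding genes were not computed at these cuts. From peaks of a single replicate, the density was 24.5 to 55.2 per Mb, the promoter share 23.9 to 38.5% and the consensus share 34.1 to 43.6%. None of these was computed for the whole list of a single replicate. Within 1 kb of a start the promoter share was 30.0%, compared with 13.3% of all shared regions. Within 5 kb it was 43.3%, compared with 34.3%, and from starts of protein-coding genes only it was 33.3%, compared with 13.5%. With GTAAACA alone the consensus share was 23.3%, compared with 20.8% of all shared regions. It was 36.7% within 25 bp, compared with 34.6%, and the reversed consensus, a control of like composition, was found in 13.3%, compared with 16.0%. With 30 regions the intervals of the shares are wide, 39.2 to 72.6% for the consensus, and differences from all shared regions were not tested.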

Other observations

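Among the other pathway genes, 3 had a region near the top of all shared regions, singled out after their values had been seen. The strongest region at TGFBR3 was at rank 262, that at LTBP2, a matrix protein related to the latent TGF-beta carriers, at rank 329, and that at ID3, a helix-loop-helix protein without a DNA-binding region, at rank 332. ACVR1 had the most regions with a −log10 q of at least 5 in both replicates, 4 of its 6, although its strongest was at rank 3948.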
